A study of Mus musculus with 6 samples.

Results

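The genes of bile acid synthesis and of the bile acid receptor FXR were examined in livers of mice overdosed with APAP (acetaminophen), a drug that injures hepatocytes. The group comprised 10 genes, chosen by name in the table of gene counts, out of 34745 genes listed there. They were 6 enzymes that convert cholesterol to bile acids (Cyp7a1, Cyp8b1, Cyp27a1, Cyp7b1, Hsd3b7 and Akr1d1), 2 enzymes that conjugate bile acids (Slc27a5 and Baat), FXR itself (Nr1h4) and SHP (Nr0b2). All 10 were counted highly enough to be kept and were among the 13734 genes tested.

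The samples comprised 3 livers of mice given APAP (300 mg/kg, 12 hours) and 3 livers of mice given saline, all of WT genotype. Per the study's methods, the mice were male C57BL/6J, aged 8 to 10 weeks, and were fasted for 12 hours before the intraperitoneal injection. Counts were analysed for 5 libraries, namely APAP replicates 1 and 3 and the libraries WT1, WT2 and WT3. APAP replicate 2 was not analysed here. The column names mark the other libraries as APAP, and on that ground the WT libraries were taken as saline. The labels do not say that the libraries of a group came from separate mice, so the p-values measure only the spread between these libraries.

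Hepatocytes make bile acids from cholesterol. In the classic pathway CYP7A1 carries out the initial and rate-limiting hydroxylation of the sterol ring, and in the alternative pathway CYP27A1 acts on the side chain before CYP7B1 acts on the ring. Bile acids that return to the liver bind FXR, which pairs with RXR and induces SHP, a repressor that lacks a DNA-binding domain. SHP lowers transcription of Cyp7a1 and Cyp8b1 through LRH-1 and HNF4A, and FXR in the ileum adds a second signal, FGF15, which acts on FGFR4 and β-Klotho in hepatocytes.

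The stretch of 250 bases directly upstream of the transcription start is shown for 4 of the genes, Nr0b2 and Cyp8b1 as genes of the feedback loop and Cyp27a1 and Akr1d1 as genes that fell with APAP. The sequences are those of RefSeq on GRCm38.p6, whose table held 6 of the 10 genes, and each is written 5′ to 3′ on the strand of its gene. Capitals mark matches, on either strand, to 4 motifs. These were the HNF4 motif CAAAGTCCA, the LRH-1 core TCAAGG, the FXR inverted repeat (AGGTCA and TGACCT with any base between them) and the TATA box TATAAA.
Nr0b2 (chr4:133553126-133553375, plus strand): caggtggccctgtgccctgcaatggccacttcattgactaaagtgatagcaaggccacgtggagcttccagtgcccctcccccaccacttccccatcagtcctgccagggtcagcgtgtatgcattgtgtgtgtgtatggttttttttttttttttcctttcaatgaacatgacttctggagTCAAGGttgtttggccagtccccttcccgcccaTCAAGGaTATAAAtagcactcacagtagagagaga
Cyp8b1 (chr9:121916306-121916555, minus strand): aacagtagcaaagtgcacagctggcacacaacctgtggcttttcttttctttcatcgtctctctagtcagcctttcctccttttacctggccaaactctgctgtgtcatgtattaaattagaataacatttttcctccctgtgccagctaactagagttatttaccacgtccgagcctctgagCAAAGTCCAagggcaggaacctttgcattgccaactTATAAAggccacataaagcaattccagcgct
Cyp27a1 (chr1:74713285-74713534, plus strand): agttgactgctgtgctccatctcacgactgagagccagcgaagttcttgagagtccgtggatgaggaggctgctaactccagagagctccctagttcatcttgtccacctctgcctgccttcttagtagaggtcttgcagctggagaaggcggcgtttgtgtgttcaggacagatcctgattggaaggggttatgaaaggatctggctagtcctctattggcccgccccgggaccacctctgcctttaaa
Akr1d1 (chr6:37529923-37530172, plus strand): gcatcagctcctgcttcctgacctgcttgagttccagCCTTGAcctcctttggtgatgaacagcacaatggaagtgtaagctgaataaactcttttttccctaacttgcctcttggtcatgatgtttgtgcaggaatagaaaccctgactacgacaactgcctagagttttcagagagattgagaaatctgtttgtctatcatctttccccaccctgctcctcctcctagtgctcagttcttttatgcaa
Nr0b2 held 2 LRH-1 cores, which began 68 and 35 bases before the start, and a TATA box that began at 28 bases. Cyp8b1 held the HNF4 motif, beginning 67 bases before the start, and a TATA box beginning at 31 bases. Akr1d1 held a single LRH-1 core on the opposite strand, 213 to 208 bases before the start, and Cyp27a1 held none of these letters. Hsd3b7 and Nr1h4, whose stretches are not shown, held no match to any of the 4 motifs. The RefSeq start used for Nr1h4 lies 26927 bases inside the span of the gene, so the stretch before its outermost start was not searched. Of the 6 genes, 1 thus held the HNF4 motif, 2 the LRH-1 core, 0 the inverted repeat and 2 the TATA box. Among 32851 upstream stretches of the same length, 0.384% held the HNF4 motif, 12.5% the LRH-1 core, 0.00609% the inverted repeat and 12.4% the TATA box. The matches are descriptions of sequence and were not tested as binding sites.

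Several properties of the libraries bear on the comparison. The total count per library was 13378445 to 15976339, and the TMM normalization factors ranged from 0.783 to 1.27. Levels are given as CPM, the count of a gene scaled to a common normalized library size. Xist, the noncoding RNA that coats the inactive X, was at 0.764 and 1.73 CPM with APAP against 289.6 to 914 CPM with saline. Ddx3y, on the Y chromosome, was at 79.0 and 61.7 CPM against at most 1 count, so the values of the saline libraries go against the male sex stated in the methods. Sex-linked expression and treatment cannot be told apart in any result below. Of 12 plasma protein genes that mark hepatocytes, 0 passed in the edgeR quasi-likelihood (QL) test after adjustment (4 had an unadjusted P under 0.05, all lower, and DESeq2 called 5), and their summed level was 95310 and 150417 CPM with APAP against 151241 to 212812 CPM with saline. Fewer hepatocytes and less RNA per hepatocyte cannot be told apart in bulk tissue. Of 12 pericentral hepatocyte genes, which mark the zone around the central vein where APAP is bioactivated and where Cyp7a1 is also known to be expressed, 9 were lower with APAP and none higher, with a median log2 fold change of −3.31. Of 12 periportal genes, 3 were lower and none higher, with a median of −0.82. Of 9 tested cholangiocyte markers, 3 were higher and none lower (summed level of the 12 listed, 457 and 478 CPM against 98.9 to 115 CPM, with Krt19 at 23.6 and 2.72 CPM with APAP and Sctr at 0 counts in both). Skeletal muscle genes split the libraries across the groups. The summed level of 9 such genes, chosen after their values were seen, was 1.29 and 0.807 CPM in APAP replicate 1 and WT1 but 678, 1100 and 2032 CPM in APAP replicate 3, WT2 and WT3. These 9 genes held at most 0.190% of the count of a library. Leaving them out moved no log2 fold change of the 10 genes by more than 0.00064, which bears on the scaling only. Whether the split marks another difference between the libraries was not tested. The part of sex, hepatocyte content, zonation and cholangiocytes in the results below was not tested.

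Every one of the 10 genes had a lower fitted level with APAP than with saline, and 4 of them fell at an adjusted p under 0.05. These were Cyp7a1, Akr1d1, Cyp27a1 and Slc27a5. The count of 4 of 10 stands beside 3.53% of all genes tested that were lower at the same threshold (3.7% were higher, 7.23% in all). By the thresholds named in the study, a 1.5-fold change and an unadjusted P under 0.05, 6 of 10 were lower, beside 11.2% of all genes tested (12.3% were higher, 23.5% in all). For 7 of the 10, both APAP libraries lay below every saline library, beside 20.1% of all genes (44.1% in either direction). The median log2 fold change was −1.36 over the 10 genes and 0.03 over all genes tested. It was −0.65 when the libraries were scaled to the 12 plasma protein genes, which moved the median over all genes to 0.64.

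**Figure D1:**
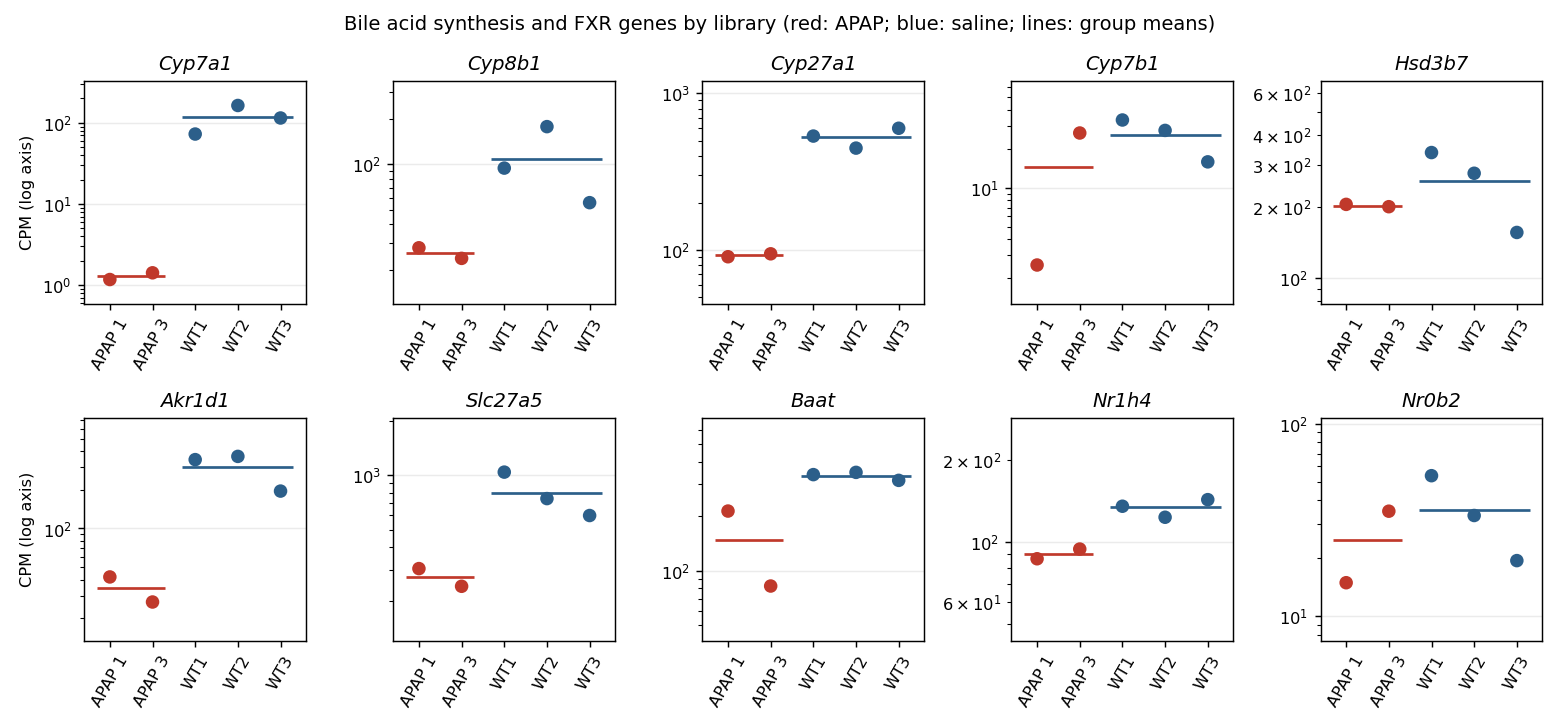
Each panel plots the CPM of a gene (log axis, its own range in each panel) in the 2 APAP libraries (red) and the 3 saline libraries (blue), with horizontal lines at the group means. Cyp7a1 lies between 1.18 and 1.42 CPM in the APAP libraries and between 72.7 and 163 CPM in the saline libraries, whereas the points of Cyp7b1, Hsd3b7 and Nr0b2 overlap between the groups.

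Cyp7a1 showed the largest difference among the 10 genes. The gene (ENSMUSG00000028240) lies on chromosome 4 of GRCm38 from 6265612 to 6275633 on the minus strand. Its raw count was 20 and 23 with APAP and 811, 2459 and 1715 in WT1, WT2 and WT3. After normalization this was 1.18 and 1.42 CPM against 72.7, 163 and 115 CPM, so that every saline library was far above both APAP libraries. The saline mean was 90.0-fold the APAP mean (117 ± 45.4 CPM, SD, n = 3, against 1.298 ± 0.174 CPM, SD, n = 2). In the fit, the log2 fold change was −6.48 (standard error, SE, 0.48, adjusted p = 0.00184, Benjamini-Hochberg adjustment of the edgeR QL test), which placed Cyp7a1 at rank 32 from the lowest of 13734 genes. It stayed between −6.72 and −5.96 under 14 other settings of test, scaling, filter and libraries, all of them under an adjusted p of 0.05.

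Cyp8b1, which adds the hydroxyl group that distinguishes cholic acid, lies on chromosome 9 (121914356 to 121916305). It measured 28.0 and 23.9 CPM with APAP against 94.1, 177 and 55.7 CPM with saline. The groups did not overlap, although the saline libraries differed 3.18-fold among themselves. The log2 fold change of −2.07 (SE 0.49, 95% interval −3.23 to −0.91) had an adjusted p of 0.0529 in the edgeR QL test and so did not pass the threshold. The adjusted p was under 0.05 in 7 of 14 other settings, between 1.95e-04 and 0.226 over all of them, and the log2 fold change was −1.53 without WT2.

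In the alternative pathway Cyp27a1 fell and Cyp7b1 did not pass the threshold, and the difference between these changes was not tested. Cyp27a1 (chromosome 1, 74713574 to 74737892), a mitochondrial sterol hydroxylase, measured 90.8 and 94.8 CPM with APAP against 534, 447 and 599 CPM with saline. The values within each group lay close together and the saline mean was 5.67-fold the APAP mean. The fall of 2.50 on the log2 scale passed the threshold in each of the 14 other settings, with −1.89 when scaled to the plasma protein genes.

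Cyp7b1, the oxysterol hydroxylase of the alternative pathway, differed widely between the APAP libraries. It lies on chromosome 3 (18071950 to 18243338) and is known to be more highly expressed in male than in female mouse liver. It was at 2.53 CPM in APAP replicate 1 and 26.5 CPM in APAP replicate 3, a 10.5-fold difference, against 33.3 CPM in WT1, 27.7 CPM in WT2 and 15.8 CPM in WT3. APAP replicate 3 lay within the saline range and APAP replicate 1 below it. Its log2 fold change was −0.82 (95% interval −2.78 to 1.14, edgeR QL adjusted p = 0.590), 0.05 without APAP replicate 1 and −3.35 without APAP replicate 3, where the adjusted p was 0.0396. The ratio of Cyp27a1 to Cyp7b1 per kilobase of exon overlapped between the groups, at 35.8 and 3.57 with APAP against 15.96, 16.1 and 37.7 with saline. A list of 14 male-biased liver genes, which includes Cyp7b1, also differed between these libraries, with a summed level of 233 CPM in replicate 1 and 1558 CPM in replicate 3 against 379, 254 and 190 CPM with saline. Of its 11 tested genes, 8 had a higher fitted level with APAP and 3, Cyp7b1 among them, a lower one. In the QL test after adjustment 1, Serpina4-ps1, named after its value was seen, was called higher, whereas DESeq2 called 7. At the study's fold change and unadjusted P, 6 were higher and 1 was lower, beside 12.3% and 11.2% of all genes tested. The median log2 fold change of the list was 2.15. The male-biased Mup20, a pheromone-binding major urinary protein, was at 97.9 CPM and 1045 CPM in the same APAP libraries against 90.6, 56.8 and 53.8 CPM with saline. Of 17 female-biased liver genes, 11 were lower with APAP and none higher, and the part of sex in the Cyp7b1 values was not tested.

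The shared steps of ring modification follow the hydroxylations. Akr1d1 (chromosome 6, 37530173 to 37568815), the reductase that bends the sterol ring system into the shape of a bile acid, measured 41.95 and 26.8 CPM with APAP against 344, 364 and 196 CPM with saline. Its lowest saline library was well above both APAP libraries. The log2 fold change of −3.13 (SE 0.40, edgeR QL adjusted p = 0.00936) passed the threshold in all 14 other settings, between −3.49 and −2.45, with its highest adjusted p, 0.0496, without APAP replicate 3.

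Hsd3b7 (chromosome 7, 127800604 to 127803802), the dehydrogenase that acts on the ring after its hydroxylation, shares its span with another gene. It measured 205 and 200.1 CPM with APAP against 338, 277 and 156 CPM with saline, and the groups overlapped through WT3. With Hsd3b7 alone, the log2 fold change was −0.34 (SE 0.35, edgeR QL adjusted p = 0.594). Of the 50-base words of the longest Hsd3b7 transcript, 97.5% also occur in transcripts of another gene. The table lists RP23-325D10.3 on the same strand from 127785608 to the same end as Hsd3b7, with 4 and 3 counts with APAP, 4 in WT1, 1680 in WT2 and 2300 in WT3. The overlapping gene thus held 28.7% and 49.6% of the joint count in WT2 and WT3 and at most 0.115% in the other libraries. When both were summed, a choice made after these counts were seen, the levels were 205 and 200.3 CPM with APAP against 339, 388 and 310 CPM with saline. The groups then no longer overlapped, and the log2 fold change was −0.77 (SE 0.23, unadjusted p = 0.0137, adjusted p = 0.0995 from the same test). The summed value again missed the adjusted threshold, and 7 of the 10 genes were then lower at the study's fold change and unadjusted P.

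**Figure D2:**
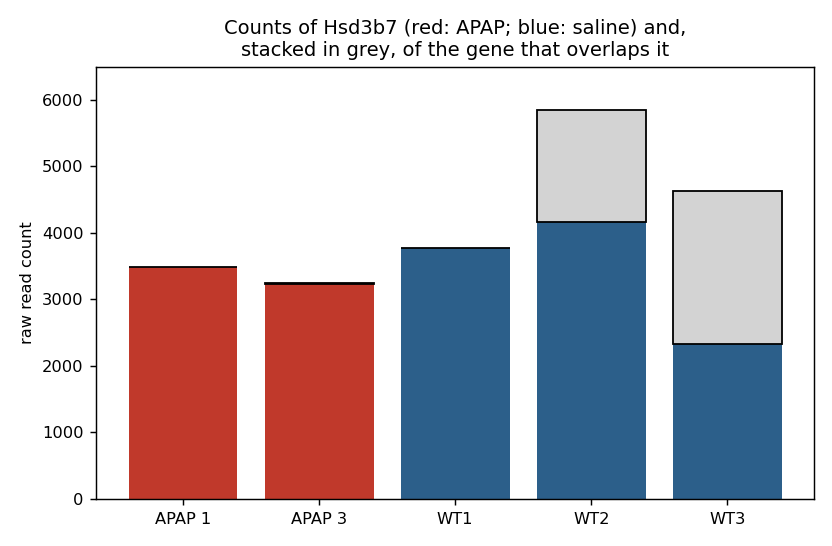
Bars show the raw read count of Hsd3b7 in each library (red for APAP, blue for saline), with the count of the overlapping gene RP23-325D10.3 stacked on top in grey. The grey part is visible only in WT2 and WT3, with 1680 and 2300 counts, and the joint count there is above that of both APAP libraries.

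Of the conjugating enzymes, Slc27a5 fell and Baat did not pass the threshold. Slc27a5 (chromosome 7, 12988346 to 12998192), the ligase that couples bile acids to coenzyme A, measured 304 and 243 CPM with APAP against 1039, 742 and 598 CPM with saline. The groups did not overlap and the saline mean was 2.90-fold the APAP mean. The log2 fold change of −1.54 (SE 0.33) had an adjusted p of 0.0421 in the edgeR QL test. This call was lost when libraries were scaled by size only (adjusted p = 0.0549) or to the plasma protein genes (−0.85, adjusted p = 0.117), and in 4 of the 5 fits with a library left out, the exception being that without WT3.

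Baat (chromosome 4, 49489422 to 49506557), which transfers taurine or glycine to the activated bile acid, measured 213 and 82.5 CPM with APAP against 339, 349 and 315 CPM with saline. The saline libraries differed 1.11-fold and the APAP libraries 2.59-fold, with APAP replicate 3 the lower, the opposite of the order of Cyp7b1. Baat had a log2 fold change of −1.18 (SE 0.41, edgeR QL adjusted p = 0.136), −2.02 without APAP replicate 1 and −0.66 without APAP replicate 3.

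The receptor FXR and its target SHP, a repressor, did not pass the threshold. Nr1h4 (FXR; chromosome 10, 89454234 to 89533585) measured 86.8 and 94.2 CPM with APAP against 135, 123 and 143 CPM with saline. The groups did not overlap, and the APAP mean was 67.6% of that with saline. Its log2 fold change, −0.57 (95% interval −1.06 to −0.07), had an adjusted p of 0.152 in the edgeR QL test, and it was 0.045 when libraries were scaled to the plasma protein genes. Nr0b2 (SHP; chromosome 4, 133553376 to 133556536) measured 14.9 and 35.1 CPM with APAP against 53.7, 33.3 and 19.4 CPM with saline. Both groups were spread widely, 2.35-fold among the APAP and 2.76-fold among the saline libraries, and they overlapped. For Nr0b2, the log2 fold change was −0.50 with a 95% interval from −1.70 to 0.69 (adjusted p = 0.588 from the same test), so that neither a rise nor a fall of Nr0b2 of a size within that interval could be told from no change. It was −0.01 without APAP replicate 1, −0.07 without WT1 and −1.26 without APAP replicate 3.

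**Figure D3:**
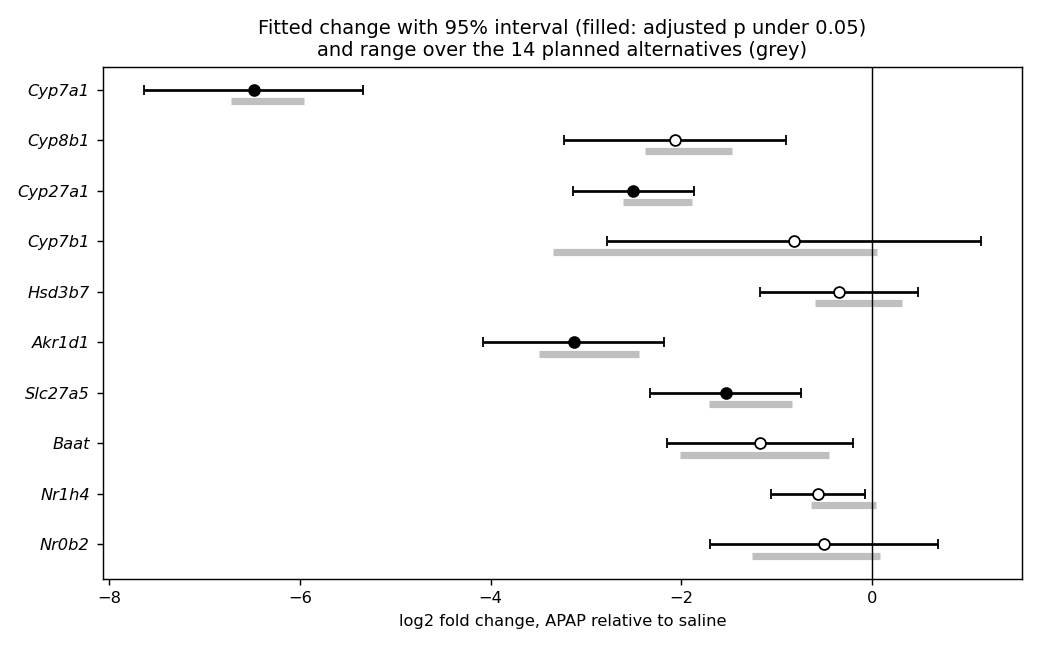
Points give the fitted log2 fold change of each gene (APAP relative to saline) with its 95% interval, filled where the adjusted p was under 0.05, and grey bars give the range over the 14 other settings. The 4 filled points are those of Cyp7a1, Cyp27a1, Akr1d1 and Slc27a5, and the grey bars of Cyp7b1, Hsd3b7, Nr1h4 and Nr0b2 reach beyond 0.

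Levels were compared between genes as CPM per kilobase of annotated exon. In saline livers the order ran from Slc27a5 (325 ± 92.4, SD, n = 3) and Cyp27a1 (242 ± 34.9) over Baat, Akr1d1, Hsd3b7, Nr1h4, Cyp8b1 and Nr0b2 to Cyp7a1 (28.0 ± 10.9) and Cyp7b1 (11.8 ± 4.13). Of the neighbours in this order, Cyp27a1 and Baat, Baat and Akr1d1, and Cyp7a1 and Cyp7b1 did not overlap, and the other neighbours did. In APAP livers Cyp7a1 was the lowest of the 10, at 0.282 and 0.341 CPM per kilobase, and Akr1d1 was the eighth. With APAP, the levels of Akr1d1 overlapped those of both its neighbours in the order, Cyp8b1 above it and Cyp7b1 below it. The place of Akr1d1 in saline livers was the fourth, or the fifth, behind Hsd3b7, with the longest annotated transcript as the length, and Hsd3b7 was counted here without the overlapping gene.

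Ratios within a library do not depend on the scaling between libraries. The ratio of Cyp27a1 to Cyp7a1, per kilobase, was 148 and 128 with APAP against 14.1, 5.26 and 10.04 with saline. The ratio of Cyp8b1 to Cyp7a1 was 51.1 and 35.9 against 2.77, 2.32 and 1.04. Both ratios were higher in each APAP library than in every saline library, so Cyp7a1 was lower relative to both other enzymes. These ratios were not tested. The ratio of Slc27a5 to Baat was 1.13 and 2.34 against 2.44, 1.69 and 1.51, and these overlapped.

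**Figure D4:**
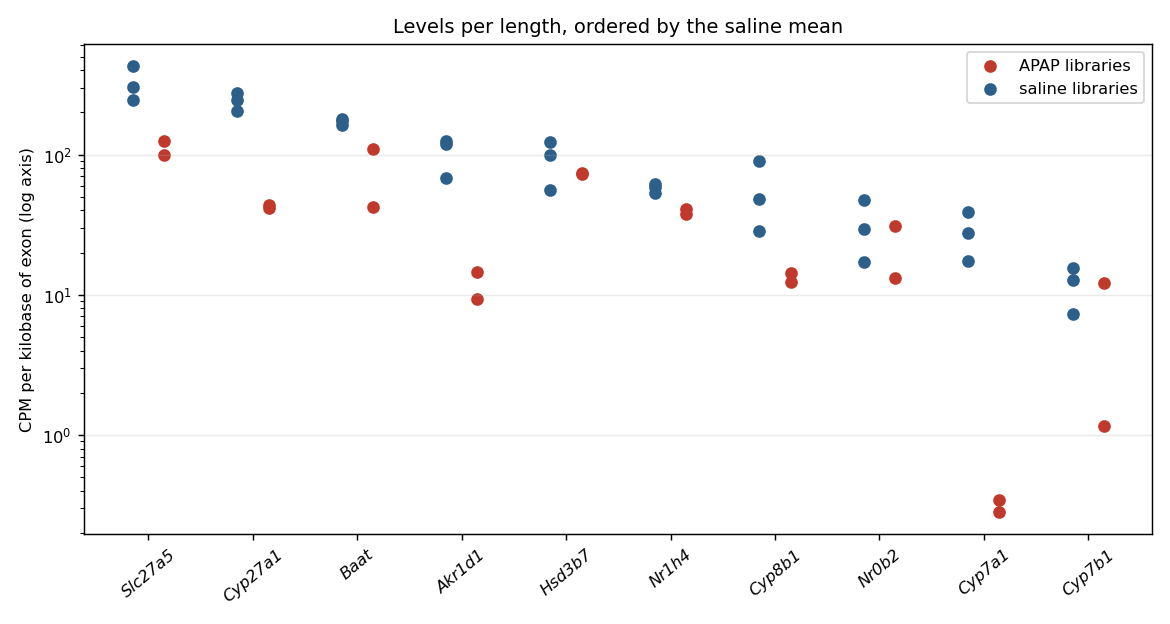
Points show the level of each gene per length (CPM per kilobase of exon, log axis) in the saline libraries (blue) and the APAP libraries (red), with genes ordered by the saline mean. Cyp7a1 is next to last in the saline libraries and lowest in the APAP libraries, at 0.282 and 0.341, and the red points of Akr1d1 and Cyp27a1 lie below all of their blue points.

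Other genes of bile acid synthesis were read from a list of 18. Of these, 2 fell, 1 rose and 15 did not pass, beside 3.53% lower and 3.7% higher of all genes tested. The median log2 fold change of the list was −0.34. Cyp2c70, the P450 that makes the muricholic acids of rodents, measured 71.3 and 66.6 CPM with APAP against 1155, 786 and 877 CPM with saline. This 13.6-fold lower mean (log2 fold change −3.77, standard error 0.32, edgeR QL adjusted p = 0.00286) passed the threshold in all 14 other settings. Cyp39a1, a hydroxylase of oxysterols, fell from 192, 132 and 380 CPM to 34.2 and 51.6 CPM (log2 fold change −2.45, adjusted p = 0.0374), but its call was lost in 4 of 5 fits with a library left out, WT3 being the exception. Cyp46a1, another sterol hydroxylase, measured 0.881 and 0.618 CPM with APAP against 3.05, 3.45 and 1.80 CPM with saline (adjusted p = 0.0839). Ch25h, which hydroxylates cholesterol on the side chain and is known to be induced in activated macrophages, had 16 and 49 counts with APAP and 0, 1 and 2 counts with saline. It rose with an adjusted p of 0.0374, which was above 0.05 in each of the 5 fits with a library left out. Of 11 neutrophil markers tested, 9 were higher with APAP (summed level of the list, 134 and 86.0 CPM against 4.84 to 9.55 CPM), and of 10 macrophage markers none passed (2 at an unadjusted P under 0.05, 1 by DESeq2). The part of these cells in the Ch25h counts was not tested.

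Genes of hepatocyte transport of bile acids and bile lipids were lower or did not pass. Of the 13 tested among 15 listed, 3 fell, none rose and 10 did not pass, beside 3.53% lower and 3.7% higher of all genes. Abcb11, the export pump for bile salts and a target of FXR, measured 95.8 and 110 CPM with APAP against 988, 898 and 515 CPM with saline. This was a log2 fold change of −2.96 (SE 0.38, edgeR QL adjusted p = 0.00944), and the call was lost without APAP replicate 1 (adjusted p = 0.0819) or WT2 (0.0539). The uptake carriers Slc10a1 (192 and 168 CPM against 717, 531 and 403 CPM, adjusted p = 0.0346) and Slco1b2 (104 and 304 CPM against 1585, 1527 and 1567 CPM, adjusted p = 0.0225) also fell. The calls of Slc10a1 and Slco1b2 were lost in 4 and in 3 of the 5 fits with a library left out. The call of Slc10a1 was also lost when scaled to the plasma protein genes (adjusted p = 0.0931). The basolateral exporters Abcc3 and Abcc4 did not pass. Abcc3 overlapped between the groups, and Abcc4 was at 10.28 and 13.1 CPM against 7.26, 6.71 and 7.01 CPM (adjusted p = 0.125). Scaled by library size only, Abcc4 was called higher (log2 fold change 1.12, adjusted p = 0.0468). Slc51a had no count in any library, and Slc51b, its partner in bile acid export, had 14 and 0 counts with APAP and 6, 4 and 2 with saline.

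Among receptors and coregulators, 1 of 20 tested genes was called and 19 did not pass, beside 7.23% called among all genes tested. By DESeq2, 4 of the 20 were called, beside 2093 of 13732 genes in all. In the QL test, 7 of the 20 had an unadjusted P under 0.05. The partners of SHP and FXR did not pass in the QL test, whereas DESeq2 called Hnf4a (adjusted p = 0.0386) and Rxra (adjusted p = 0.0208). Hnf4a measured 415 and 706 CPM with APAP against 871, 960 and 1424 CPM with saline (edgeR QL adjusted p = 0.172). Nr5a2, which encodes LRH-1, was at 49.9 and 54.2 CPM against 94.3, 82.2 and 64.7 CPM (adjusted p = 0.158). Rxra was at 275 and 305 CPM against 411, 415 and 446 CPM (adjusted p = 0.197). The groups did not overlap for these 3 genes, as for 10 of the 20 on the list and 44.1% of all genes tested. For the FGF15 signal, Fgf15 had no count in any liver library, Fgfr4 overlapped between the groups (adjusted p = 0.602), and Klb, which encodes β-Klotho, was at 22.7 and 28.1 CPM against 48.8, 29.0 and 43.7 CPM (adjusted p = 0.192).

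Genes known to be induced by FXR were read from a list of 15, which includes Nr0b2 and Abcb11. Of the 13 tested, 2 fell, 1 rose and 10 did not pass, beside 3.53% lower and 3.7% higher of all genes tested. A lower fitted level was found for 11 of the 13, beside 6589 of 13734 genes in all. The median log2 fold change of the list was −0.51. Vldlr, a lipoprotein receptor, measured 1.23 and 2.72 CPM with APAP against 9.95, 26.4 and 16.3 CPM with saline (log2 fold change −3.15, edgeR QL adjusted p = 0.0238). Without APAP replicate 1, APAP replicate 3 or WT2 its adjusted p was above 0.05. Apoc2, the cofactor of lipoprotein lipase, rose by 1.95 on the log2 scale (adjusted p = 0.0282), but Apoc4 lies within its span on the same strand. Apoc2 had 10385 and 6403 counts with APAP and 2076, 1609 and 1447 with saline, while Apoc4 had 3583 and 5430 counts against 7221, 7229 and 6219. Summed, a choice made after these counts were seen, they were at 821 and 731 CPM against 833, 587 and 512 CPM. The log2 fold change of the sum was 0.27 (adjusted p = 0.630). The sum joins a gene with higher counts with APAP to a gene with lower counts, so their changes offset each other. Of the sequence words of Apoc2, taken as for Hsd3b7, 88.2% also occur in another gene, with Gm44805 the closest. Whether reads were divided between Apoc2 and Apoc4 was not tested.

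**Figure D5:**
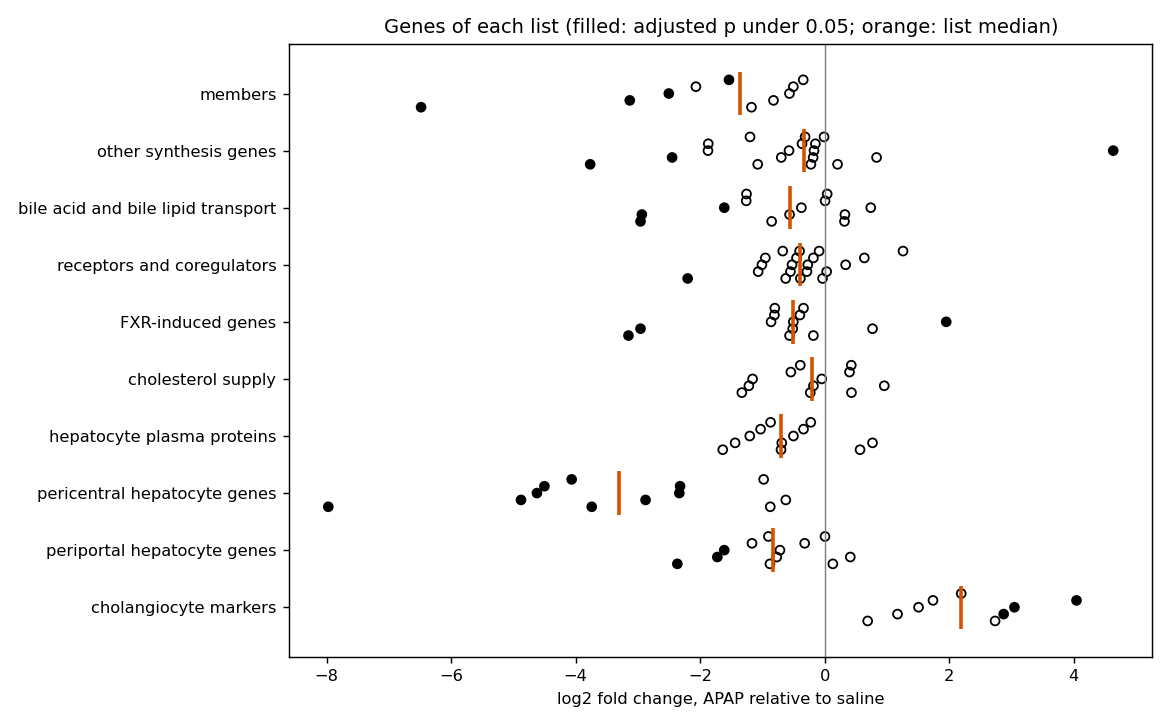
Each circle is a tested gene at its fitted log2 fold change (APAP relative to saline), in rows by gene list, filled where the adjusted p was under 0.05, with the list median in orange. The 10 bile acid genes have a median of −1.36, pericentral hepatocyte genes lie lower with a median of −3.31, and cholangiocyte markers lie above 0 with a median of 2.19.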

How the data were processed

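Livers of mice given APAP or saline were profiled by RNA-Seq. Per the study's methods, the authors sequenced on an Illumina NovaSeq platform and obtained read counts with HISAT2. The submitters' processing notes name GRCm38 and mm10, while the annotation, strand setting and program versions are not given in the sources used here. The deposited values used were raw read counts per gene and library, without normalization. The authors' FPKM columns were not used.

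Counts were analysed with edgeR 4.0.16 in R 4.3.3. The filter was filterByExpr, with a minimum count of 10 and a minimum total of 15. After TMM normalization the quasi-likelihood (QL) test was run, with p-values adjusted by Benjamini-Hochberg over every gene tested. Standard errors were the log2 fold change divided by the square root of F. CPM used the TMM-normalized library sizes. A count of 3 corresponded to 0.176 to 0.269 CPM, for counting error only. The alternatives were the likelihood ratio and exact tests, DESeq2 1.42.0, RLE, upper-quartile and no factors, scaling to 12 plasma protein genes, 2 other filters and each library left out. The tests were checked on simulated counts. All 10 genes had the same start and end in GENCODE M21, from which exon lengths and shared 50-base words were taken. No pair of libraries in a group was alike within counting error, with chi-square values of 43.2 to 92.2 for each degree of freedom.

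The 10 genes and the gene lists were chosen with earlier results of these data known. Named beside the 10 genes were a fixed set of 17 genes (among them Abcb11, Slc10a1, Nr5a2, Hnf4a, Xist and Ddx3y) and, from each list of the pathway, up to 4 genes with the largest change among those with an adjusted p under 0.05, no overlap and a mean of at least 1 CPM. Outside this rule, Krt19, Sctr, Mup20, Serpina4-ps1, Slc51a, Apoc4, Insig1, Soat2, Dbp, Cry1, RP23-325D10.3 and the muscle genes were chosen after their values were seen. Some genes that these choices would name are not reported here.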

Additional observations from a re-analysis of the deposited data

How the results depend on the processing

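Of the calls among the 10 genes, those of Cyp7a1, Cyp27a1 and Akr1d1 were kept in all 14 other settings. The number of genes called was 4 and became 7 with DESeq2, which added Cyp8b1, Baat and Nr1h4 and called 2093 of 13732 genes in all, and it ranged from 3 to 5 with a library left out. The remaining settings gave 3 to 5. At the study's fold change and unadjusted P the number was 6, and 5 to 7 in the alternatives. Scaling by library size only or to the plasma protein genes moved the median of all genes to 0.42 and 0.64 on the log2 scale, and the genes called higher from 508 of 993 to 1042 of 1339 and 1197 of 1416. Some log2 fold changes that had missed the threshold changed sign. By library size only, Hsd3b7 was at 0.075 and Fgfr4 at 0.12. Scaled to the plasma protein genes, Hsd3b7 was at 0.32, Nr1h4 at 0.045, Nr0b2 at 0.084, Fgfr4 at 0.32, Nr5a2 at 0.0037 and Rxra at 0.051. Abcc3 was at 0.041 and became −4.9e-04 with DESeq2 and with RLE factors, and it ranged from −0.67 to 0.51 with a library left out, where Cyp7b1 ranged from −3.35 to 0.050. Among the other pathway genes, 9 were called, against 16 with the likelihood ratio test and 16 with the exact test, 21 with DESeq2, 14 by library size only and 14 without a filter. With a library left out this number was 1 to 10, namely 2 without APAP replicate 1, 5 without APAP replicate 3, 5 without WT1 and 1 without WT2. Fewer libraries entered these fits, and where 1 APAP library remained it was assumed to vary like the saline group. Over all genes, 993 were called, against 1835 (likelihood ratio test), 1747 (exact test) and 1402 of 19935 (no filter). Without WT1, WT2 or WT3 the calls over all genes were 510, 165 and 922, so calls were lost beyond the pathway genes as well. The order of levels in saline livers kept 8 of 10 places with the longest annotated transcript as the length. No paired analysis was possible because the names of the saline columns do not tie them to the numbered saline samples.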

Other observations

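Genes that supply or handle cholesterol, the substrate of bile acid synthesis, were read from a list of 12, and none passed in the edgeR QL test after adjustment, while DESeq2 called 4. By the unadjusted P and 1.5-fold change of the study, 3 were lower and 1 was higher, beside 11.2% and 12.3% of all genes tested. The median log2 fold change of the list was −0.21. Insig1, which retains the sterol sensor complex in the endoplasmic reticulum, measured 93.8 and 122 CPM with APAP against 302.5, 324 and 187 CPM with saline (adjusted p = 0.0552). Soat2, which esterifies cholesterol, was at 50.3 and 50.4 CPM against 24.8, 32.2 and 20.7 CPM (adjusted p = 0.0578). The groups did not overlap for either gene, as for 44.1% of all genes tested. These 2 genes were chosen after their values were seen.

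Transcription of Cyp7a1 is known to follow the time of day, and the time of collection is not given in the sources used here. Of 16 clock genes, all tested, 2 were higher and 1 was lower with APAP in the edgeR QL test after adjustment, while DESeq2 called 7. By the study's fold change and unadjusted P, 6 were higher and 4 were lower, beside 12.3% and 11.2% of all genes tested. In all, 7.23% of the genes were called in the QL test, and DESeq2 called 2093 of 13732. Dbp, a clock-driven activator known to act on Cyp7a1, measured 12.6 and 9.95 CPM with APAP against 1.08, 1.06 and 0.935 CPM with saline (log2 fold change 3.45, edgeR QL adjusted p = 0.0036), while Cry1 was at 14.7 and 12.5 CPM against 38.9, 32.7 and 45.5 CPM (adjusted p = 0.0164). The part of the clock in the lower Cyp7a1 was not tested.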
